A study of Sus scrofa with 23 samples.

Results

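Most of the genes described here encode proteins that start and extend translation, or the aminoacyl-tRNA synthetases that load tRNAs with amino acids. A few regulate or modify the factors. All are read by probe sets whose platform annotation gives exactly 1 gene symbol. That symbol begins with EIF or EEF and a digit or names a tRNA synthetase. FARSA and FARSB, the subunits of cytosolic phenylalanyl-tRNA synthetase, were counted among the synthetases. The choice used symbols only and no measured value, though it was made with earlier results of these data known. It gave 63 genes with 97 probe sets, of 6765 genes that any of 10099 probe sets with 1 symbol names and of 24123 probe sets on the array. Of the 97, 90 probe sets for 61 genes were bright enough to be tested. The other 7 are the dimmest probe sets of HARS (Ssc.4573.2), EIF3D (Ssc.11296.1) and EIF5B (Ssc.9300.1 and Ssc.9300.2), the only probe sets of NARS2 and EIF1AY, and an array control for EEF1A1.

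The samples were articular cartilage of pigs from a Duroc and Pietrain crossbreed, taken at 2 joint surfaces, the medial femoral condyle (condylus medialis femoris) and the medial part of the humeral condyle (condylus humeri). The animals were affected or non-affected sibs for osteochondrosis, a disorder of growing joint cartilage. There were 4 samples of affected and 4 of non-affected femur, and 7 of affected and 6 of non-affected humerus. They came from 4, 5, 8 and 6 arrays in the same order, since 2 pairs of arrays that differed much less than other pairs of their group were averaged. The labels name no treatment, age or sex. Neither the sib relations nor whether each array held another animal is stated, so the p-values here reflect spread between samples that may be partly technical.

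Translation starts when the initiator tRNA, carried by eIF2, is brought to the small ribosomal subunit. eIF3, eIF1 and eIF1A assist there, while the cap-binding eIF4 factors bring in the mRNA. eIF2B recharges eIF2 with GTP, and kinases that phosphorylate eIF2 block that recharging and so slow translation under stress. eEF1A then delivers each loaded tRNA to the ribosome. The synthetases of the cytosol and of mitochondria are separate sets of proteins, encoded by largely separate genes. Chondrocytes of growing cartilage secrete large amounts of collagen and proteoglycan, which places a heavy load on this machinery. Roles given below are those known from human cells, mouse and yeast.

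Values are the deposited log2 signals, on which a difference of 1 is a 2-fold change. Levels were compared between samples for 1 probe set at a time, and not between probe sets. Differences are femur minus humerus or affected minus non-affected, with the standard error from limma. A probe set is called where its p-value is under 0.05 after Benjamini-Hochberg adjustment over all 16799 tested probe sets. Every comparison was also made after quantile normalisation, which gives all arrays 1 common distribution. Mean levels of the 97 probe sets ran from 4.46 to 14.07, with a median of 8.34.

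The 2 sites differed in array measures, in the added hybridisation controls and in measures that the tissue itself can set. The bioB control, a transcript added at hybridisation, averaged 9.80 ± 0.11 in femur samples (SD, n = 8) and 8.27 ± 0.12 in humerus samples (SD, n = 13), with no overlap. The other hybridisation controls were also higher in femur without overlap. They averaged 11.21 against 9.69 for bioC, 12.91 against 12.21 for bioD and 13.94 against 13.64 for cre. The poly(A) controls dap, lys, phe and thr did not show this, at 9.23 ± 0.14 in femur and 9.25 ± 0.23 in humerus (SD, n = 8 and 13). The median of the array was 6.04 to 6.17 in femur samples and 6.17 to 6.32 in humerus samples. The 5′ control probe set of EEF1A1 averaged 13.51 ± 0.23 in femur and 13.83 ± 0.04 in humerus, while the probe set of its middle averaged 14.08 ± 0.17 in femur and 14.07 ± 0.06 in humerus (SD, n = 8 and 13). Site and the way the arrays of a site were hybridised or scaled cannot be told apart. Markers of other cells also moved with site. All 7 endothelial probe sets, 6 of 7 myeloid and 12 of 13 neutrophil granule probe sets were called lower in femur, and 6 of 7 skeletal muscle probe sets were called higher. Of all tested probe sets 34.2% were called lower and 17.6% higher. Of 6 osteoclast probe sets 5 were called lower and 1 higher (median −1.29, lowest −5.18), of 9 bone matrix probe sets 5 lower and 2 higher (median −0.77, lowest −5.57), and of 3 erythroid probe sets 1 lower. The mean level over a list's measured genes ran from 4.72 to 6.90 in femur samples and from 5.70 to 8.47 in humerus samples for endothelial markers. It ran from 4.62 to 8.22 in femur and from 5.63 to 9.71 in humerus for myeloid, and from 4.16 to 7.05 in femur and from 4.91 to 11.8 in humerus for neutrophil markers. For muscle markers it ran from 5.02 to 8.31 in femur and from 4.89 to 7.94 in humerus. Osteoclast markers ran from 6.18 to 7.66 in femur and from 6.85 to 9.78 in humerus, bone matrix markers from 6.82 to 9.19 in femur and from 7.51 to 10.9 in humerus, and no marker was at the floor in all samples. A probe set was tested only if its mean over all samples reached 5.30. Median list levels lay under 5.30 for neutrophil markers in femur (4.45 affected, 4.77 non-affected) and for endothelial markers in affected femur (5.07). They also did so for muscle markers in humerus (5.02 affected, 4.96 non-affected). Such markers could pass the filter through the site where they were higher, which favours calls in these directions. In these bulk samples fewer cells of a type and less RNA per cell cannot be told apart, and the part of these markers in the results below was not tested. The 6 measured chondrocyte markers averaged 11.1 to 12.3 in every sample, but single probe sets of that list differed by site. The 10 tested ones ran from −0.93 to 1.15 (median 0.13), with 6 above 0 and a smallest adjusted p of 0.000513 (limma). Of them 5 had an unadjusted p under 0.05 in the deposited values and 7 after quantile normalisation. On the first principal component, which held 43.5% of the variance, femur samples lay from 26.9 to 58.4 and humerus samples from −53.2 to 29.0. Sample 5 of non-affected humerus was the one at 29.0, and the next humerus sample lay at −0.80.

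**Figure D1:**
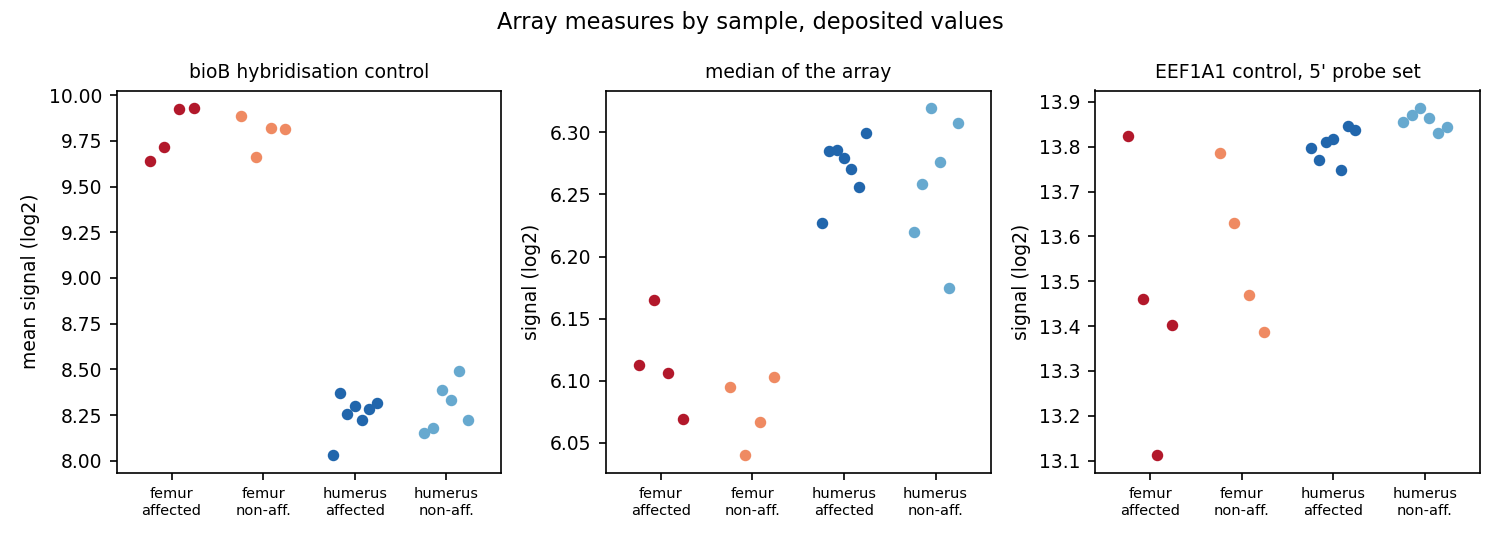
Array measures in each of the 21 samples by group, as log2 signal: the mean of the bioB hybridisation control, the median of the array and the 5′ control probe set of EEF1A1. Each point is 1 sample. The femur samples sit at 9.64 to 9.93 for bioB and the humerus samples at 8.03 to 8.49.

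Between the sites, 42 of the 90 translation probe sets were called in the deposited values, 14 higher and 28 lower in femur. That is 46.7%, against 51.8% of all tested probe sets, 17.6% of them higher and 34.2% lower. The share called among the translation genes was thus near that of the array as a whole. Their median difference was −0.12, and so was the median over all tested probe sets. After quantile normalisation 38 were called, 22 higher and 16 lower, against 51.3% of all tested probe sets, 27.9% higher and 23.4% lower. The median of all tested probe sets was then 0.03 and that of the translation probe sets 0.00. No probe set was called in opposite directions by the 2 scalings. All 14 that were called higher and 16 of the 28 called lower kept their call after quantile normalisation, while 12 lost it and 8 others became called higher.

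**Figure D2:**
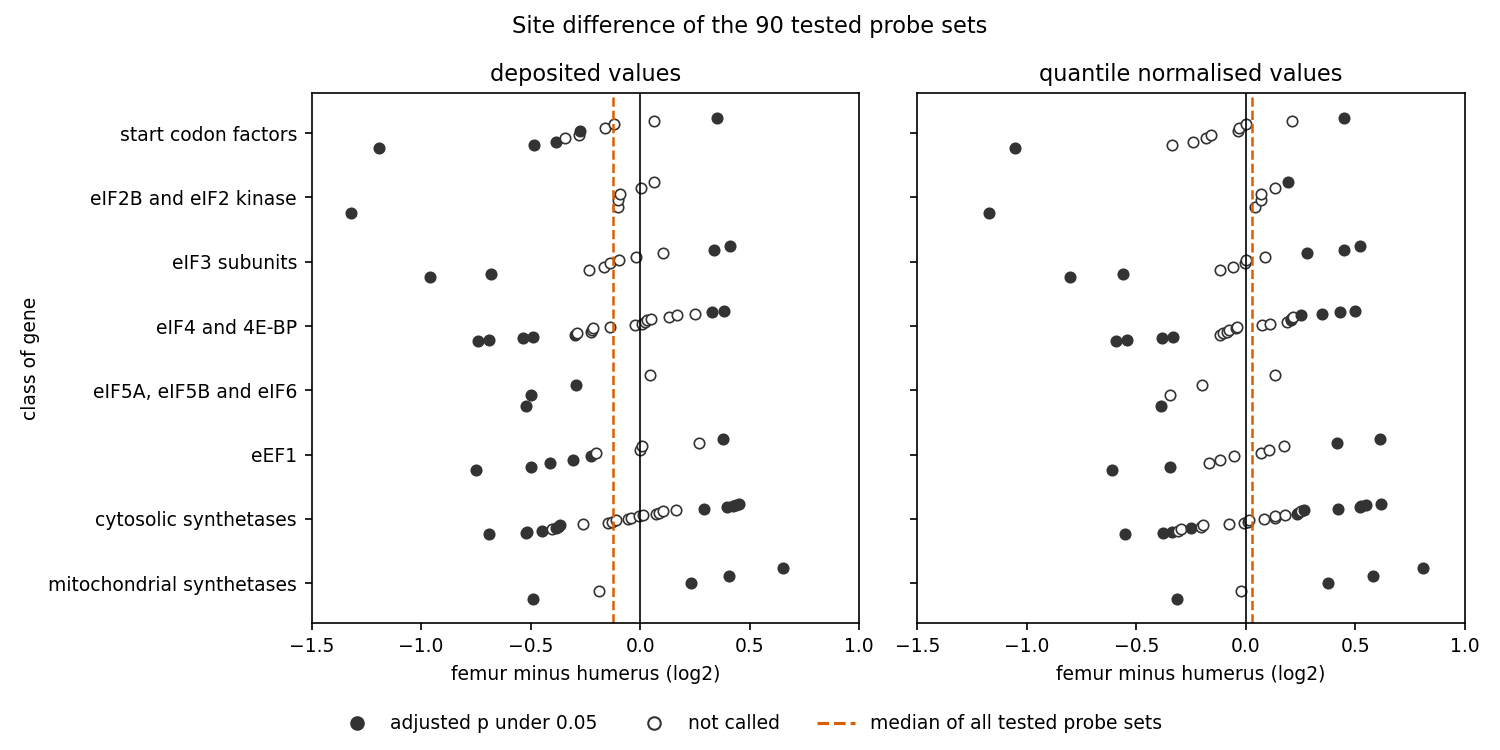
Femur minus humerus difference (log2) of each of the 90 tested probe sets by class of gene, for deposited values on the left and quantile normalised values on the right. Filled points are called, open points are not, and the dashed line is the median of all 16799 tested probe sets, −0.12 in the deposited values and 0.03 after quantile normalisation.

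Among the factors that find the start codon, 5 of 10 tested probe sets were called, 1 higher and 4 lower in femur. The largest difference was that of EIF2A (Ssc.30146.1.A1_at), a factor that can bring initiator tRNA to the ribosome independently of eIF2 and is not a subunit of eIF2. It had 5.07, 5.28, 4.97 and 4.33 in affected femur and 4.26, 4.48, 4.0 and 4.82 in non-affected femur. In humerus its lowest, median and highest values were 4.91, 6.02 and 6.56 in affected samples and 5.25, 5.79 and 6.61 in non-affected samples. The highest femur sample, at 5.28, lay above 3 humerus samples, and the lowest femur sample was at the floor of 4. The difference was −1.19 ± 0.20 (adjusted p = 8.44e-05, limma) in the deposited values and −1.05 (adjusted p = 0.000182) after quantile normalisation. The other EIF2A probe set (Ssc.6910.1.A1_at) differed by −0.49 (adjusted p = 0.0367) and was no longer called after quantile normalisation, at −0.34.

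EIF1, which guards the accuracy of start codon choice, was read by a pair of probe sets that were called in opposite directions. Ssc.1881.1.S2_at had 12.06, 12.01, 12.01 and 12.09 in affected femur and 11.91, 12.03, 11.77 and 11.95 in non-affected femur. The lowest, median and highest values were 11.19, 11.61 and 11.65 in affected humerus and 11.67, 11.68 and 11.94 in non-affected humerus. Only sample 5 of non-affected humerus, at 11.94, reached the femur values. The difference was 0.35 ± 0.07 (adjusted p = 0.00064, limma) and 0.45 after quantile normalisation (adjusted p = 5.61e-05). The second, Ssc.1881.1.S1_at, had 12.97, 13.00, 12.83 and 12.95 in affected femur and 12.99, 13.07, 12.83 and 12.92 in non-affected femur. In humerus it ran from 13.03 to 13.26 in affected samples, with a median of 13.17, and from 13.27 to 13.31 in non-affected samples, with a median of 13.29. The highest femur sample, at 13.07, lay above 1 affected humerus sample, at 13.03, and below the rest. This difference was −0.27 ± 0.06 (adjusted p = 0.00044, limma) in the deposited values but 0.00 after quantile normalisation (adjusted p = 0.991), so the direction of EIF1 rests on its S2 probe set. Of the eIF2 subunits, EIF2S1 differed by −0.28 (adjusted p = 0.0626) and EIF2S2 by −0.16, and neither was called.

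The eIF2B subunits, which recharge eIF2, did not pass the test between sites in the deposited values: the 5 tested probe sets of EIF2B1, EIF2B2, EIF2B3 and EIF2B4 lay between −0.10 and 0.06. EIF2B4 was called after quantile normalisation, at 0.19 (adjusted p = 0.0355). EIF2AK2, the double-stranded RNA sensor PKR that phosphorylates eIF2 and is induced by interferon, had the largest difference of all 90 probe sets (Ssc.7274.1.A1_at). It had 5.01, 4.63, 4.16 and 4.22 in affected femur, 4.58, 4.20, 5.43 and 4.87 in non-affected femur. As lowest, median and highest value it had 5.59, 5.77 and 7.10 in affected humerus and 4.0, 5.75 and 7.58 in non-affected humerus. Every femur sample lay below every humerus sample except sample 5 of non-affected humerus, which was at the floor. The difference was −1.32 ± 0.32 (adjusted p = 0.00196, limma) and −1.17 after quantile normalisation (adjusted p = 0.00367). In femur the means of EIF2AK2 and of EIF2A (Ssc.30146.1.A1_at), at 4.64 and 4.65, lay under the level of 5.30 that the mean over all samples had to reach, so that both were tested only because their humerus values were higher.

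The scaffold eIF3, a complex of many subunits on the small ribosomal subunit, was split. EIF3M (Ssc.3401.1.S1_at) and EIF3A, which forms part of its core, were called lower, and EIF3L and EIF3D, a subunit that can itself bind the cap, were called higher, among 10 tested probe sets. EIF3M had 5.60, 6.82, 6.40 and 5.11 in affected femur and 6.10, 5.07, 5.79 and 5.74 in non-affected femur. In humerus its lowest, median and highest values were 6.27, 6.85 and 7.41 in affected samples and 6.07, 6.58 and 7.53 in non-affected samples. The groups overlapped through affected femur samples 2 and 3 and non-affected femur sample 1. The difference of EIF3M was −0.96 ± 0.22 (adjusted p = 0.00108, limma), but its other probe set (Ssc.11102.2.S1_at) differed by −0.23 and was not called (adjusted p = 0.245). EIF3A had 9.66, 10.16, 9.84 and 8.95 in affected femur and 9.58, 8.20, 8.70 and 9.15 in non-affected femur, against medians of 10.10 in affected and 9.93 in non-affected humerus. Its difference was −0.68 ± 0.19 (adjusted p = 0.00517, limma), with the affected femur samples largely within the humerus range. EIF3L had 11.51, 11.09, 11.34 and 11.81 in affected femur and 11.35, 11.80, 11.81 and 11.31 in non-affected femur. Lowest, median and highest values were 10.69, 11.18 and 11.52 in affected humerus and 10.67, 11.03 and 11.42 in non-affected humerus, which overlap those of femur. EIF3L differed by 0.41 ± 0.12 (adjusted p = 0.00679, limma). EIF3D (Ssc.6735.1.A1_at) differed by 0.34 ± 0.12 (adjusted p = 0.0222, limma), and without non-affected femur sample 4 by 0.24 (adjusted p = 0.0532). EIF3K was called only after quantile normalisation, at 0.28 (adjusted p = 0.00923), against 0.10 in the deposited values.

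The cap-binding group of 20 tested probe sets had 2 called higher and 5 lower, and 5 higher and 4 lower after quantile normalisation. EIF4E2 (Ssc.18203.1.S1_a_at), a cap-binding relative of eIF4E that represses translation of some mRNAs, had 7.54, 7.26, 7.62 and 7.48 in affected femur and 7.74, 7.37, 7.92 and 7.49 in non-affected femur. Its lowest, median and highest values were 7.92, 8.09 and 8.23 in affected humerus and 7.74, 8.17 and 8.24 in non-affected humerus. The ranges met only among the highest non-affected femur and the lowest humerus samples. The difference was −0.53 ± 0.08 (adjusted p = 4.32e-05, limma), and −0.38 after quantile normalisation (adjusted p = 0.00135). A second EIF4E2 probe set (Ssc.30727.1.S1_at) had 5.77, 5.67, 5.61 and 5.58 in affected femur and 5.39, 5.59, 5.88 and 5.77 in non-affected femur. In humerus it ran from 5.88 to 6.38 in affected and from 5.91 to 6.30 in non-affected samples, all above the femur samples. It differed by −0.49 ± 0.08 (adjusted p = 5.64e-05, limma). The remaining EIF4E2 probe set (Ssc.18203.2.A1_at) differed by 0.03 and was not called (adjusted p = 0.728).

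EIF4EBP2 (Ssc.30822.1.A1_at), a binding protein that holds eIF4E inactive until mTOR phosphorylates it, had 7.67, 7.59, 7.84 and 7.61 in affected femur and 7.22, 7.77, 8.03 and 7.18 in non-affected femur. The lowest, median and highest values were 7.92, 8.52 and 8.70 in affected humerus and 8.01, 8.42 and 8.50 in non-affected humerus. One non-affected femur sample, at 8.03, lay above the lowest humerus samples and all other femur samples below them. The difference was −0.74 ± 0.12 (adjusted p = 5.4e-05, limma). The other 4 EIF4EBP2 probe sets differed by 0.25, 0.13, 0.05 and −0.23 and none was called. EIF4E itself, the cap-binding protein (Ssc.22107.2.A1_at), differed by −0.69 ± 0.21 (adjusted p = 0.0102, limma), with 5.51, 5.90, 6.23 and 5.54 in affected and 5.58, 4.49, 5.14 and 5.23 in non-affected femur, against humerus medians of 6.12 in affected and 6.18 in non-affected samples. EIF4E was called within non-affected cartilage, at −1.16, and not within affected cartilage, and the interaction did not call it.

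EIF4G1, the scaffold that links the cap-binding protein to eIF3, was higher in femur by its brighter probe set (Ssc.20606.1.S1_at). This had 9.43, 9.998, 9.73 and 9.69 in affected femur and 9.54, 9.65, 9.78 and 9.79 in non-affected femur. As lowest, median and highest value it had 8.84, 9.35 and 9.53 in affected humerus and 9.07, 9.38 and 9.45 in non-affected humerus. One affected femur sample, at 9.43, lay within the humerus range. The difference was 0.38 ± 0.09 (adjusted p = 0.00148, limma), and after quantile normalisation, at 0.50, all femur samples lay above all humerus samples. The other EIF4G1 probe set (Ssc.30760.1.S1_at) differed by −0.22 (adjusted p = 0.124). EIF4B, which stimulates the helicase eIF4A, was called higher by 1 of 2 probe sets (Ssc.18323.1.S1_at, 0.33 ± 0.09, adjusted p = 0.0053, limma). The helicase gene EIF4A2 was called lower in the deposited values (−0.30, adjusted p = 0.0112) and not after quantile normalisation (−0.08, adjusted p = 0.45), and EIF4A1 was called in neither.

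EIF5A, a hypusine-bearing factor that helps ribosomes past difficult stretches, was lower in femur by both probe sets. Ssc.11669.1.S1_at had 8.57, 8.32, 8.63 and 8.54 in affected femur and 8.53, 8.75, 8.79 and 8.82 in non-affected femur. Lowest, median and highest values were 8.54, 9.12 and 9.35 in affected humerus and 8.65, 9.19 and 9.57 in non-affected humerus, so that the lowest humerus samples overlapped the femur samples. The difference was −0.52 ± 0.12 (adjusted p = 0.000913, limma) and −0.39 after quantile normalisation (adjusted p = 0.0125). The second probe set (Ssc.11669.3.A1_at) differed by −0.29 (adjusted p = 0.0307) and was not called after quantile normalisation. EIF6, which keeps the ribosomal subunits apart, differed by 0.04 and was not called (adjusted p = 0.583).

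In the elongation group, 6 of 10 tested probe sets were called, 1 higher and 5 lower, against 2 higher and 2 lower after quantile normalisation. The group was formed by symbol and also holds EEF1AKMT1, a methyltransferase of eEF1A, and EEF1E1, neither of them an elongation factor. After quantile normalisation EEF1D and 1 probe set of EEF1AKMT1 were the higher calls, and both EEF1E1 probe sets the lower ones. EEF1E1, known also as AIMP3 and a scaffold protein of the multi-synthetase complex, was lower in femur by both of its probe sets. Ssc.4303.1.S1_at had 7.89, 8.09, 8.30 and 7.98 in affected femur and 7.97, 7.92, 8.0 and 8.06 in non-affected femur. Its lowest, median and highest values were 8.08, 8.70 and 9.0 in affected humerus and 8.72, 8.80 and 9.13 in non-affected humerus. A single humerus sample, affected sample 1 at 8.08, lay within the femur values. The difference was −0.75 ± 0.10 (adjusted p = 9.08e-06, limma) in the deposited and −0.61 (adjusted p = 3.13e-05) in the quantile normalised values, and the other probe set (Ssc.4303.2.S1_at) differed by −0.50 ± 0.09 (adjusted p = 0.000129, limma).

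The subunits of the exchange factor that recharges eEF1A did not move together. EEF1B2, its nucleotide exchange subunit, had 13.31, 13.30, 13.15 and 13.12 in affected femur and 13.53, 13.27, 13.16 and 13.18 in non-affected femur. In humerus its lowest, median and highest values were 13.54, 13.68 and 13.74 in affected samples and 13.57, 13.66 and 13.75 in non-affected samples, all above the femur samples. The deposited difference was −0.41 ± 0.06 (adjusted p = 2.39e-05, limma), but after quantile normalisation it was −0.12 and not called (adjusted p = 0.0914). With arrays centred on their median EEF1B2 was called lower. EEF1G, a structural subunit, differed by −0.22 (adjusted p = 0.00336) in the deposited values and by 0.07 after quantile normalisation (adjusted p = 0.282), a change of sign. EEF1D, the other exchange subunit, had 12.61, 12.80, 12.74 and 12.99 in affected femur and 13.05, 12.93, 13.01 and 12.78 in non-affected femur. The lowest, median and highest values were 12.29, 12.54 and 12.78 in affected humerus and 12.25, 12.39 and 12.80 in non-affected humerus, with overlap at the upper end. EEF1D differed by 0.38 ± 0.08 (adjusted p = 0.00101, limma), and by 0.61 after quantile normalisation (adjusted p = 3.12e-05). Of the 3 tested probe sets of EEF1A1, 1 was called lower (Ssc.31059.1.S1_at, −0.30, adjusted p = 0.0159) and only in the deposited values.

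**Figure D3:**
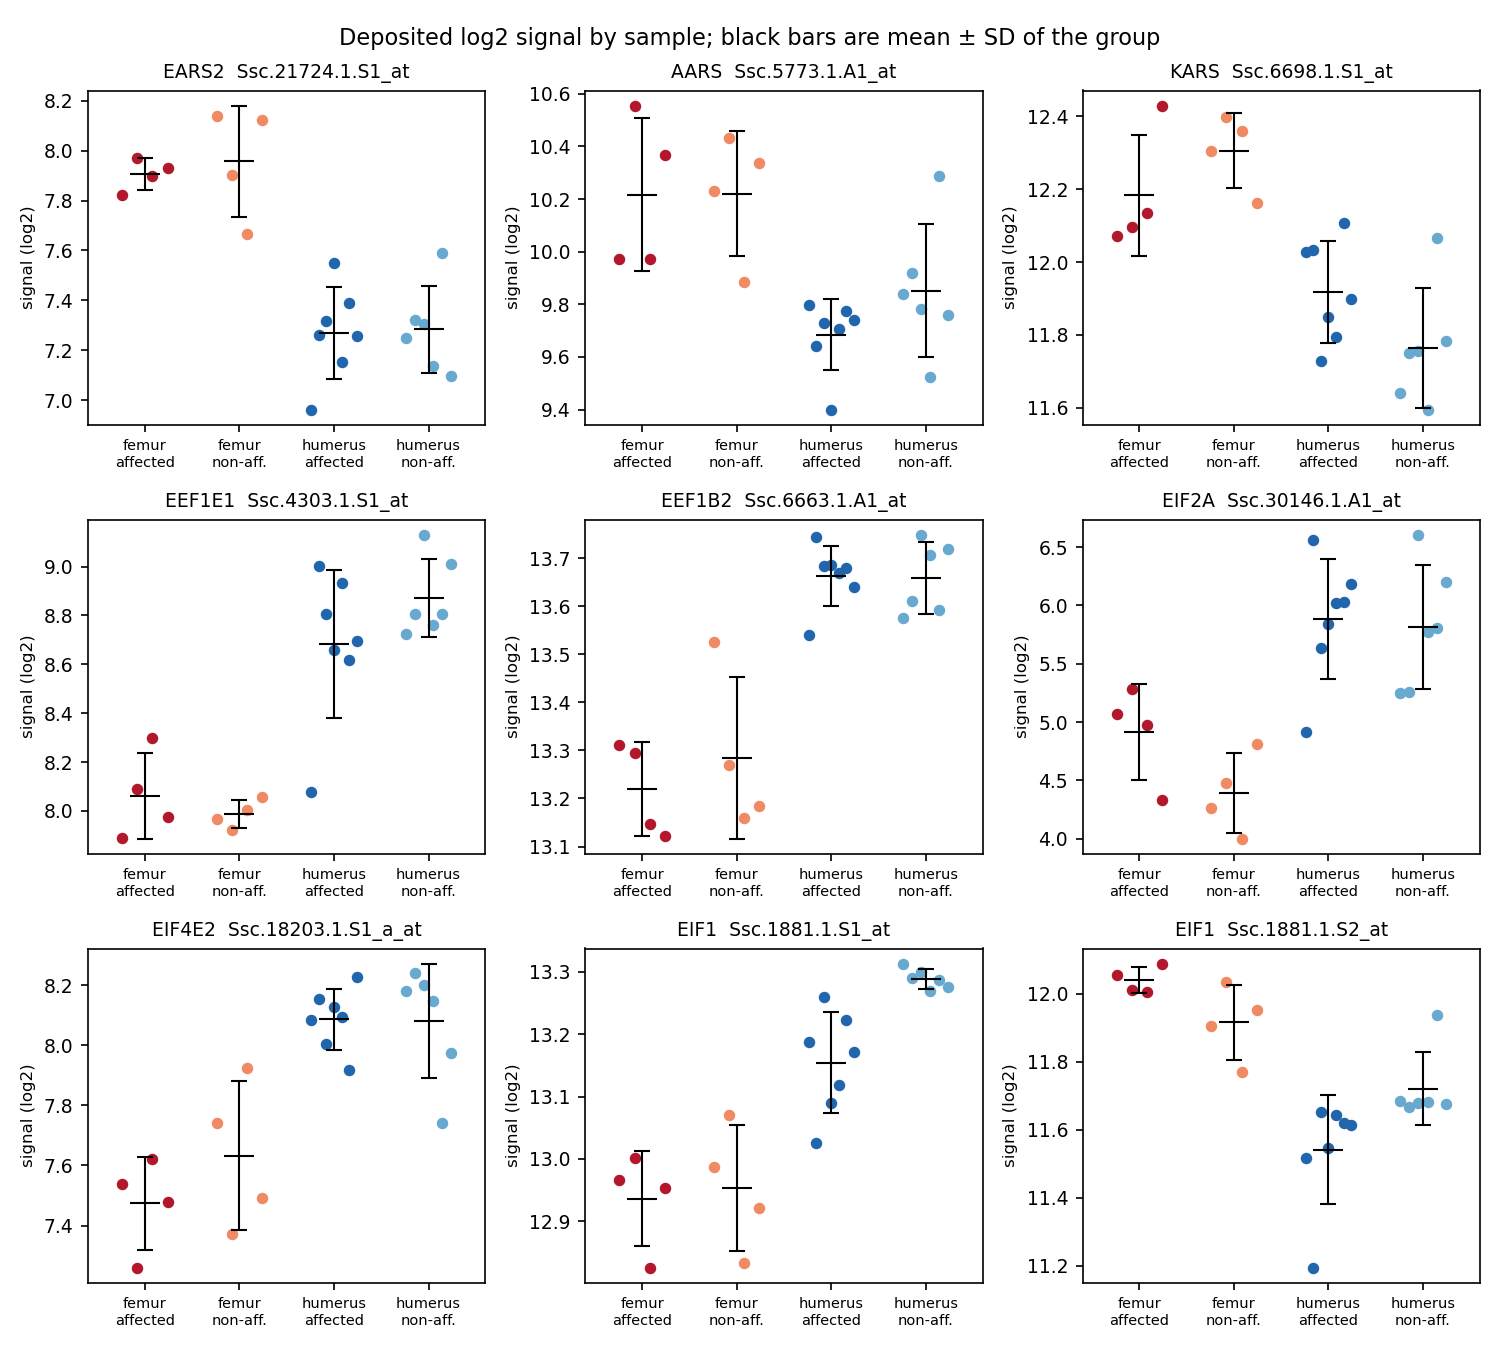
Deposited log2 signal of 9 probe sets in each of the 21 samples by group, with black bars for the mean ± SD of the group. EARS2, AARS, KARS and the S2 probe set of EIF1 are higher in femur, and EEF1E1, EEF1B2, EIF2A, EIF4E2 and the S1 probe set of EIF1 are lower in the deposited values; EEF1B2 and the S1 probe set of EIF1 were not called after quantile normalisation.

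The cytosolic synthetases went both ways. Of 25 tested probe sets, 5 were called higher and 7 lower in femur, and after quantile normalisation 7 higher and 4 lower. Called higher in both scalings were both probe sets of AARS, 1 each of SARS and EPRS, and KARS. Called lower in both were both probe sets of DARS, LARS and RARS. The alanyl-tRNA synthetase AARS (Ssc.5773.1.A1_at) had 9.97, 10.55, 9.97 and 10.37 in affected femur and 10.23, 10.43, 9.89 and 10.34 in non-affected femur. As lowest, median and highest value it had 9.40, 9.73 and 9.80 in affected humerus and 9.52, 9.81 and 10.29 in non-affected humerus. Only non-affected humerus reached into the femur range. AARS differed by 0.45 ± 0.10 (adjusted p = 0.0011, limma), and its second probe set (Ssc.5773.1.S1_at) by 0.44 ± 0.15 (adjusted p = 0.0173, limma). Both AARS probe sets were called within affected cartilage, at 0.53 and 0.71, and neither within non-affected cartilage, at 0.15 and 0.37.

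KARS, the lysyl-tRNA synthetase (Ssc.6698.1.S1_at), had 12.07, 12.10, 12.14 and 12.43 in affected femur and 12.31, 12.40, 12.36 and 12.16 in non-affected femur. Lowest, median and highest values were 11.73, 11.90 and 12.11 in affected humerus and 11.60, 11.75 and 12.07 in non-affected humerus. The ranges touched among the lowest affected femur and the highest humerus samples. KARS differed by 0.40 ± 0.08 (adjusted p = 0.000417, limma), and after quantile normalisation, at 0.52, all femur samples lay above all humerus samples. The seryl-tRNA synthetase SARS (Ssc.9404.2.S1_at) had 9.88, 10.38, 10.43 and 10.15 in affected femur and 9.77, 10.05, 9.88 and 10.12 in non-affected femur. In humerus its lowest, median and highest values were 9.28, 9.46 and 9.68 in affected samples and 9.64, 9.76 and 10.17 in non-affected samples. The affected femur samples lay above all affected humerus samples, and the non-affected groups overlapped. SARS differed by 0.42 ± 0.11 over both states (adjusted p = 0.00338, limma), by 0.71 within affected cartilage (adjusted p = 0.000382) and by 0.12 within non-affected cartilage (adjusted p = 0.505). The other SARS probe set (Ssc.9404.1.S1_at) differed by 0.07 over both states.

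DARS, the aspartyl-tRNA synthetase, was lower in femur by both probe sets over both states. Within non-affected cartilage both were called, at −0.93 and −0.79, and within affected cartilage neither was, at −0.47 and −0.27. The interaction called neither. Ssc.22328.3.S1_at had 6.87, 6.86, 6.79 and 6.83 in affected femur and 6.62, 5.95, 6.50 and 6.69 in non-affected femur. Its lowest, median and highest values were 6.68, 7.16 and 7.34 in affected humerus and 6.86, 7.26 and 7.52 in non-affected humerus, with only the lowest humerus samples among the femur values. The difference was −0.52 ± 0.12 (adjusted p = 0.000939, limma), and that of Ssc.22328.2.S1_at was −0.69 ± 0.19 (adjusted p = 0.00403, limma). LARS, the leucyl-tRNA synthetase that also reports leucine to mTOR, had 8.24, 8.53, 8.80 and 8.01 in affected femur and 8.41, 7.89, 7.99 and 8.71 in non-affected femur, against 8.53, 8.79 and 9.18 (lowest, median and highest) in affected and 8.38, 8.89 and 9.32 in non-affected humerus. The groups overlapped, and the difference was −0.51 ± 0.14 (adjusted p = 0.00359, limma). RARS differed by −0.38 (adjusted p = 0.00501). The tryptophanyl synthetase WARS, an interferon-induced gene, was called lower by 2 of 3 probe sets, −0.38 and −0.37, and by none after quantile normalisation, at −0.20 for both.

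EPRS, the fused glutamyl-prolyl synthetase, which supplies the proline that collagen holds in large amounts, gave no single direction. Ssc.7362.1.S1_at differed by 0.29 ± 0.09 (adjusted p = 0.00987, limma) and by 0.42 after quantile normalisation (adjusted p = 0.000356). Ssc.21447.1.S1_at differed by −0.45 ± 0.17 (adjusted p = 0.028, limma) and was not called after quantile normalisation, at −0.31. The third EPRS probe set (Ssc.7362.2.S1_at) differed by −0.06. GARS, which loads glycine, the most frequent residue of collagen, was called by 0 of 3 probe sets in the deposited values, where 2 differed by 0.16 and −0.26 and Ssc.18444.3.S1_at by less than 0.01. Ssc.18444.1.S1_at of GARS was called after quantile normalisation, at 0.27.

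The mitochondrial synthetases had 3 of 5 tested probe sets called higher and 1 lower in femur, the same split in both scalings, and a median of 0.23, against −0.12 over all tested probe sets. EARS2, the mitochondrial glutamyl-tRNA synthetase, was the one member whose femur samples all lay above all humerus samples in the deposited values. It had 7.82, 7.97, 7.90 and 7.93 in affected femur and 8.14, 7.90, 7.66 and 8.12 in non-affected femur. The lowest, median and highest values were 6.96, 7.26 and 7.55 in affected humerus and 7.10, 7.28 and 7.59 in non-affected humerus. EARS2 averaged 7.93 ± 0.15 in femur and 7.28 ± 0.17 in humerus (SD, n = 8 and 13), a difference of 0.65 ± 0.08 (adjusted p = 5.3e-06, limma), and of 0.81 after quantile normalisation (adjusted p = 4.61e-07). The groups of EARS2, EEF1B2 and an EIF4E2 probe set did not overlap between sites, 3 of 90, against 4.51% of all tested probe sets. After quantile normalisation those of EARS2, EIF4G1, KARS and EPRS (Ssc.7362.1.S1_at) did not overlap, all higher in femur, 4 of 90 against 5.14%.

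VARS2, the mitochondrial valyl synthetase, had 6.70, 6.73, 6.35 and 7.16 in affected femur and 6.87, 6.68, 6.91 and 6.38 in non-affected femur. As lowest, median and highest value it had 6.13, 6.30 and 6.51 in affected humerus and 6.03, 6.38 and 6.49 in non-affected humerus, so that 1 femur sample of each state lay among them. VARS2 differed by 0.40 ± 0.10 (adjusted p = 0.00169, limma). IARS2, the mitochondrial isoleucyl synthetase, differed by 0.23 ± 0.08 (adjusted p = 0.0166, limma) and by 0.38 after quantile normalisation. WARS2, for tryptophan, went the other way, with 6.70, 5.94, 6.46 and 6.74 in affected femur, 6.66, 6.78, 6.70 and 6.33 in non-affected femur, and 6.77 to 7.50 over all humerus samples, only the highest femur sample reaching that range. WARS2 differed by −0.49 ± 0.11 (adjusted p = 0.0013, limma).

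Several probe sets of a gene often disagreed. Of 21 genes with at least 2 tested probe sets, 11 had the same sign in all of them and 6 had all called, while 10 had some called and some not. EIF1 and EPRS had probe sets called in both directions. The span between the lowest and the highest difference of a gene had a median of 0.31 and reached 0.99 in EIF4EBP2.

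**Figure D4:**
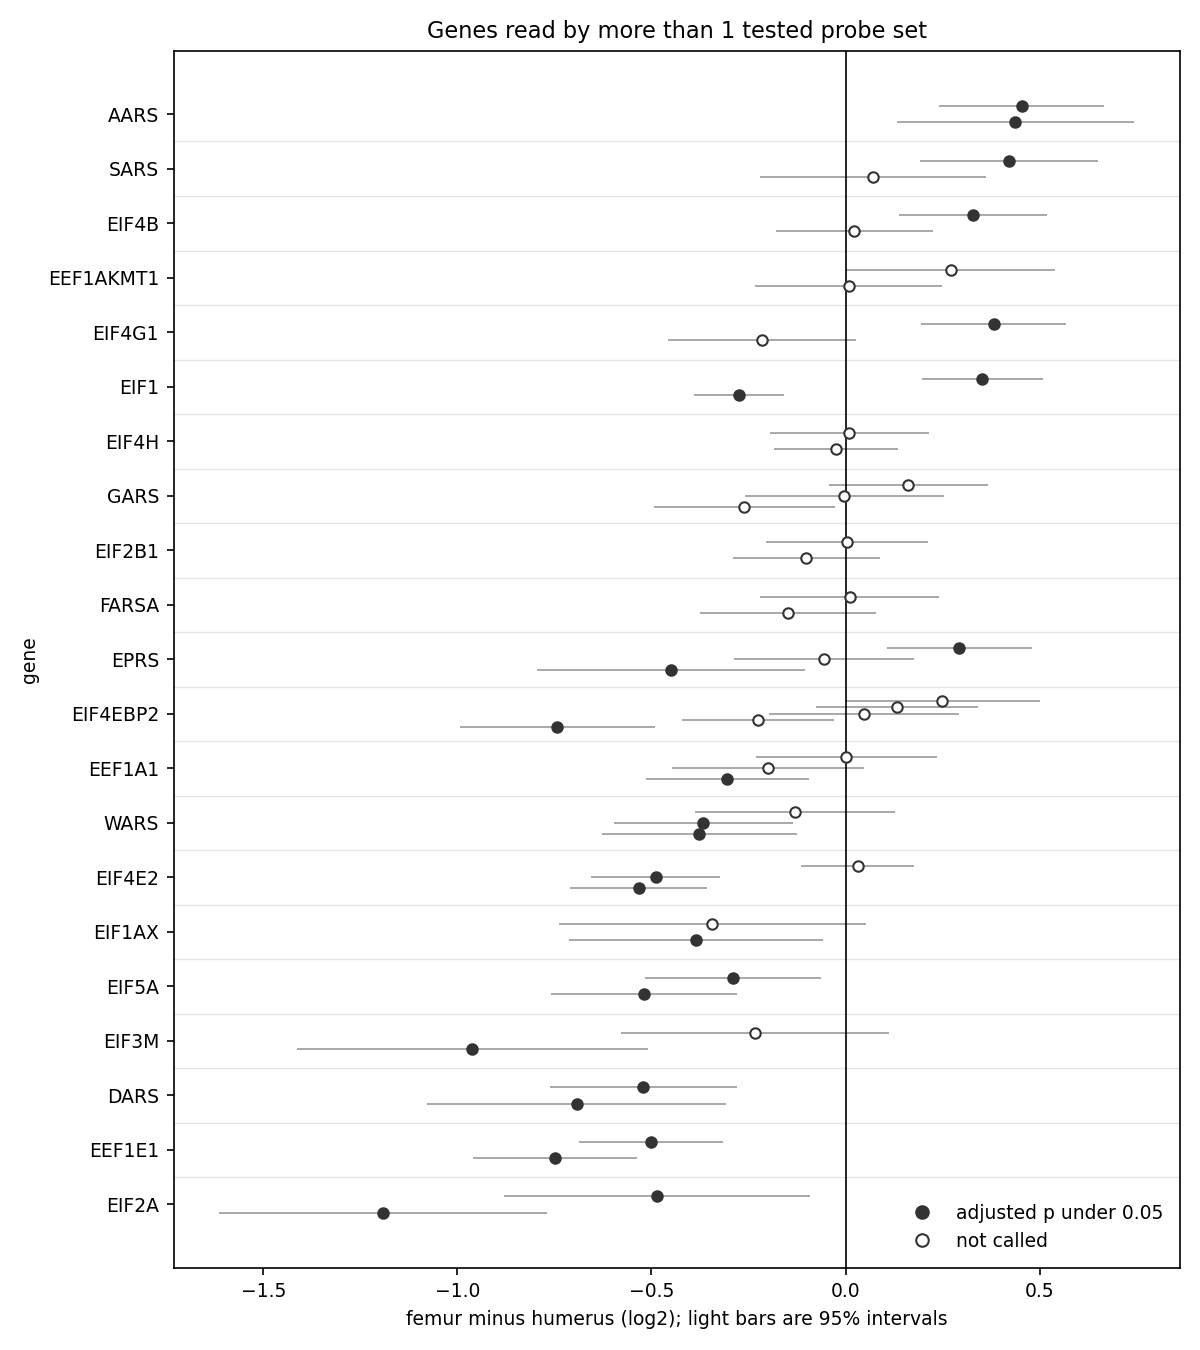
Femur minus humerus difference (log2, deposited values) of each tested probe set for the 21 genes read by more than 1, with 95% intervals. Filled points are called. AARS, DARS, EEF1E1, EIF5A and EIF2A have every probe set called in 1 direction, and EIF1 and EPRS have probe sets called in both.

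Within affected cartilage 27 of 90 probe sets were called between sites, 10 higher and 17 lower, against 38.5% of all tested probe sets, 13.9% higher and 24.6% lower. Within non-affected cartilage 31 were called, 10 higher and 21 lower, against 36.6%, 11.6% higher and 25% lower; without non-affected femur sample 3, 18 were called. After quantile normalisation these counts were 14 higher and 9 lower in affected cartilage, against 37.8% of all tested probe sets, 21.4% higher and 16.4% lower. In non-affected cartilage they were then 19 higher and 11 lower, against 36%, 19.6% higher and 16.4% lower. The cytosolic synthetases had 6 called higher and 2 lower in affected cartilage and 1 higher and 6 lower in non-affected cartilage. After quantile normalisation they had 8 higher and 1 lower in affected and 4 higher and 3 lower in non-affected cartilage. Called probe sets of 1 gene are counted apart here. They stood for 5 genes in affected and 6 in non-affected cartilage, and for 7 and 6 genes after quantile normalisation. That the site difference depends on status is the same contrast as the interaction described below, which called no member.

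The counts of this and the next paragraph stand beside the shares of all tested probe sets. Those were 17.6% called higher and 34.2% lower in the deposited values, and 27.9% higher and 23.4% lower after quantile normalisation. Ribosomal protein genes, measured by 84 tested probe sets for 59 genes, were set beside the factors. Of these, 10 were called higher and 60 lower in femur, with a median of −0.28, and after quantile normalisation 16 were higher and 13 lower, with a median of −0.02. Their one-sided split in the deposited values thus did not hold after quantile normalisation. With arrays centred on their median 56 of 84 lay below 0, with a median of −0.11, against 0.05 over all tested probe sets. Among stress targets of the eIF2 pathway, 5 of 24 tested probe sets were called higher and 5 lower, and 8 higher and 3 lower after quantile normalisation. The genes of that list with the largest calls were VEGFA, an angiogenic factor (Ssc.15740.2.S1_a_at, 1.54, adjusted p = 0.00307, with another VEGFA probe set called lower, at −0.32), SLC1A4, a neutral amino acid transporter (0.74, adjusted p = 0.0032), and DDIT3, the stress transcription factor CHOP (0.65, adjusted p = 0.0115), all higher. The largest lower calls were PSPH, a serine synthesis enzyme (−1.28, adjusted p = 0.000817), ATF3 (−1.13, adjusted p = 0.0148) and MTHFD2 (−0.70, adjusted p = 0.00383). ATF4, the transcription factor at the head of that response, differed by −0.07 and 0.09 and ASNS, its target asparagine synthetase, by 0.25, none of them called in the deposited values, while the ATF4 probe set that differed by 0.09 was called after quantile normalisation, at 0.31.

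In a list of mTOR pathway and translation control genes, 5 of 17 tested probe sets were called higher and 8 lower, and 6 higher and 4 lower after quantile normalisation. SESN1, a sestrin that restrains mTOR, was called lower by both probe sets, at −1.27 (adjusted p = 0.000304) and −1.10, and LAMTOR3, part of the lysosomal anchor of mTOR, at −0.79 (adjusted p = 2.71e-05). TSC2, a brake on mTOR, was higher by 0.46 (adjusted p = 0.0115). Of other translation factors and cofactors, 1 of 14 tested probe sets was called higher and 8 lower, and 3 higher and 4 lower after quantile normalisation. IMPACT, an inhibitor of the eIF2 kinase GCN2, was called lower by both probe sets, at −0.83 (adjusted p = 0.000651) and −0.69, and PAIP1, which binds the poly(A)-binding protein, at −0.69 (adjusted p = 0.000881). AIMP2, another scaffold of the multi-synthetase complex, was higher by 0.25 (adjusted p = 0.0361). Of 6 probe sets for mitochondrial translation factors 3 were called lower (50%), against 51.8% of all tested probe sets called and 34.2% called lower. They were the elongation factor GFM1 at −0.99 (adjusted p = 4.57e-07, limma), MTRF1L at −0.48 (adjusted p = 0.0194) and TSFM at −0.22 (adjusted p = 0.0469). After quantile normalisation 1 was called lower, and the 6 had a median of 0.02, with 3 above 0.

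Osteochondrosis status called no translation probe set at either site, by limma with Benjamini-Hochberg adjustment. In femur 0 of 90 were called, against 1.14% of all tested probe sets, and 15 had an unadjusted p under 0.05, 16.7% against 20.4% of all tested probe sets. The differences ran from −0.48 to 0.90, with a median half-width of the unadjusted 95% interval of 0.34. Smaller differences were mostly not detectable at this number of samples, and a call after adjustment asks for more. Of the 8 differences over 0.5 in size 0 were called. The median of the 90 was 0.00. The smallest p was that of EIF2B1 (Ssc.27483.1.S1_at), with 8.27, 7.82, 8.09 and 8.28 in affected femur and 8.57, 8.59, 8.74 and 8.44 in non-affected femur. All affected samples lay below all non-affected samples, and the difference was −0.47 ± 0.13 (adjusted p = 0.0786, limma). The other EIF2B1 probe set (Ssc.27483.2.S1_at) lay the other way, at 0.10. Of the eIF2B and kinase class 3 of 6 probe sets had an unadjusted p under 0.05, with a median of −0.25, and 2 of 6 had one after quantile normalisation. EIF2B2 had 8.83, 8.68, 8.74 and 9.0 in affected femur and 9.37, 9.29, 9.43 and 8.91 in non-affected femur. Only 1 non-affected sample, at 8.91, lay in the affected range, and the difference of EIF2B2 was −0.44 (adjusted p = 0.148).

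SARS (Ssc.9404.1.S1_at) had 7.66, 8.30, 8.04 and 7.98 in affected femur and 7.25, 7.73, 7.16 and 7.80 in non-affected femur, with overlap, and differed by 0.51 ± 0.17 (adjusted p = 0.119, limma). IARS2 had 8.0, 8.05, 8.0 and 8.11 in affected femur and 8.45, 8.32, 8.37 and 8.39 in non-affected femur, without overlap, and differed by −0.34 ± 0.12 (adjusted p = 0.14, limma). EIF3A differed by 0.74 (adjusted p = 0.151), with the values given above. The groups of 4 members did not overlap in femur, DARS (Ssc.22328.3.S1_at) higher and EIF2B1, EIF3I and IARS2 lower, 4 of 90 against 8.08% of all tested probe sets, 3.01% higher and 5.07% lower. All 7 myeloid probe sets lay lower in affected femur, at a median of −2.01, with 0 called. The mean level of that list ran from 4.62 to 6.44 in affected and from 6.23 to 8.22 in non-affected femur. Of the endothelial probe sets 6 of 7 also lay lower (median −0.78) and of the neutrophil granule ones 11 of 13 higher (median 0.59), with 0 called, and the bone matrix factor SP7 was called lower, at −0.98 (adjusted p = 0.035, limma). The mean level of the neutrophil list ran from 4.16 to 7.05 in affected femur and from 4.58 to 5.23 in non-affected femur. Its median sample was lower in affected femur, at 4.45 against 4.77, and both lay near the floor of 4. Chondrocyte probe sets lay higher in 9 of 10 (median 0.23), with 0 called. The part of these markers in the values of translation genes was not tested.

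In humerus 0 of 90 were called, as were 0% of all tested probe sets, and 7 had an unadjusted p under 0.05, 7.8% against 6.55%. Differences ran from −0.37 to 0.31, with a median half-width of the 95% interval of 0.27. Of those 7, 6 belonged to the cytosolic synthetases, whose 25 tested probe sets had a median of −0.12, with 6 above 0. The 6 are not separate genes, since at least 2 each are probe sets of GARS and of SARS. The glycyl-tRNA synthetase GARS (Ssc.18444.1.S1_at) had lowest, median and highest values of 10.89, 11.16 and 11.32 in affected humerus and 11.39, 11.47 and 11.62 in non-affected humerus. The groups did not overlap, and the difference was −0.34 ± 0.11 (adjusted p = 0.641, limma). SARS (Ssc.9404.1.S1_at) had 7.32, 7.43 and 7.74 in affected and 7.73, 7.78 and 8.28 in non-affected humerus, its highest affected sample just above the lowest non-affected one. It differed by −0.35 (adjusted p = 0.708), and by −0.27 without non-affected sample 5, which stood apart from the other humerus samples and held the value of 8.28. The other SARS probe set (−0.33), a second GARS probe set (Ssc.18444.3.S1_at, −0.37) and MARS (−0.33) also lay lower, at −0.27, −0.32 and −0.28 without that sample, and none of them was called. Besides GARS, only both EIF1 probe sets had groups that did not overlap, all 3 lower in affected humerus, against 0.22% of all tested probe sets, 0.161% of them lower. After quantile normalisation 0 of the 90 did, against 0.173%, 0.137% of them lower. All 13 neutrophil granule probe sets lay higher in affected humerus, at a median of 2.52, with 0 called. The mean level of that list ran from 5.51 to 11.2 in affected and from 4.91 to 11.8 in non-affected humerus. Most other lists lay higher too, with 7 of 7 myeloid (median 0.85), 7 of 7 endothelial (0.90), 5 of 6 osteoclast (0.94), 8 of 9 bone matrix (0.40) and 7 of 7 skeletal muscle probe sets (0.25) above 0 and 0 called. The chondrocyte list went the other way, with 2 of 10 probe sets above 0 (median −0.11) and 0 called. Their part in the values of translation genes was not tested.

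Over both sites 0 of 90 were called and 1 had an unadjusted p under 0.05, against 0% and 7.28% of all tested probe sets. The smallest p was that of IARS2, which differed by −0.23 (adjusted p = 0.618) and was not called. The interaction, which asks whether the status difference of femur departs from that of humerus, called 0 of 90, against 0.268% of all tested probe sets, and 18 had an unadjusted p under 0.05, 20% against 18.9%. The smallest was that of SARS (Ssc.9404.1.S1_at), at 0.86 ± 0.21 (adjusted p = 0.0838, limma), and 0.78 without non-affected humerus sample 5 (adjusted p = 0.122). The second SARS probe set followed at 0.59 (adjusted p = 0.138), and EIF2B1 was next, at −0.52 (adjusted p = 0.149), with its other probe set at 0.06. Probe sets of 1 gene are counted apart here, as with both of SARS, and the cytosolic synthetases had 25 probe sets for 15 genes. Of the 18, 9 were among the 25 cytosolic synthetase probe sets, of which 13 were above 0 in femur and below 0 in humerus, against 30 of all 90 members and 5218 of all 16799 tested probe sets. The eIF2B and kinase class had 0 of 6 in that pattern and 4 of 6 in the opposite one. The stress targets of the eIF2 pathway had 20 of 24 above 0 in femur and below 0 in humerus, with medians of 0.34 and −0.32 and 0 called at either site. ASNS was at 0.36 in femur and −0.46 in humerus, ATF4 at 0.44 and 0.13 in femur and −0.35 and −0.37 in humerus, and DDIT3 at 0.18 in femur and −0.25 in humerus. These are differences that did not pass the test, and they are given as values.

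**Figure D5:**
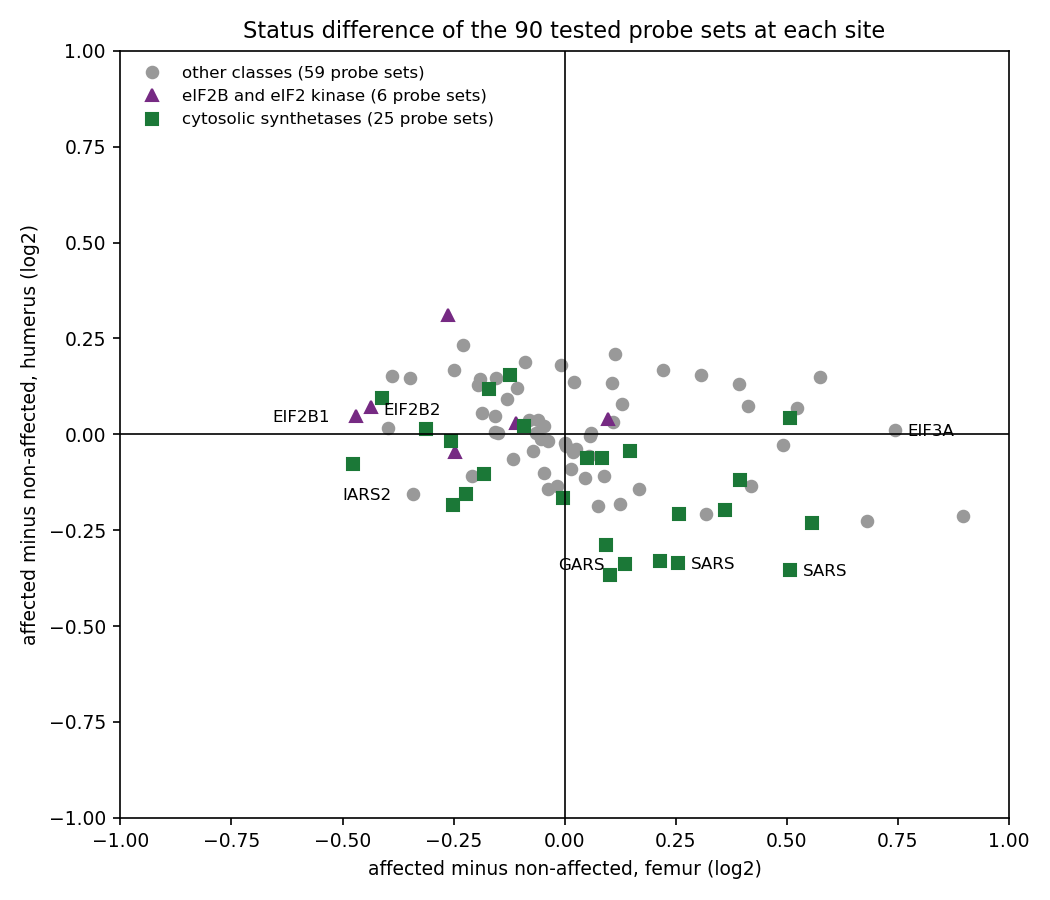
Affected minus non-affected difference (log2, deposited values) in femur on the horizontal axis and in humerus on the vertical axis, 1 point for each of the 90 tested probe sets, of which 0 were called at either site. Cytosolic synthetases are squares and eIF2B with the eIF2 kinase triangles. The squares labelled SARS are Ssc.9404.1.S1_at, at 0.51 in femur and −0.35 in humerus, and Ssc.9404.2.S1_at, at 0.26 in femur and −0.33 in humerus.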

How the data were processed

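Total RNA of cartilage was labelled with biotin and hybridised to the Affymetrix Porcine Genome Array, per the labels' protocols. The authors deposited log2 signals with a floor at 4; GCOS 1.1.1 is named in the submitters' processing notes, and how arrays were normalised is not given in the sources used. Gene symbols came from the platform annotation; 96 of 97 gene IDs matched a RefSeq table. Arrays of 1 group that differed by an SD under 0.25 over the probe sets were averaged (2 pairs, at 0.107 and 0.213; the next at 0.340). Control probe sets and the 7200 with a mean under the 30th percentile (5.30) were left out. limma 3.58.1 (R 4.3.3, lmFit and eBayes) fitted site with status, status with site, and 4 group means for the other contrasts, and the script was tested on simulated data. Samples carry numbers in accession order only. The members and gene lists were chosen with earlier results of these data known. Named members were the largest calls per direction (12 between sites, 5 otherwise), or the 5 smallest p where fewer were called, with all probe sets of those genes and the brightest gene of each class. Quantile normalisation, median centring, other filters, array weights, a variance trend, separate arrays, averaging per gene and leaving out each sample were tried.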

Additional observations from a re-analysis of the deposited data

Results flagged for a closer look

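In 11 of 168 groups over the 42 named probe sets, 1 sample lay far from the others of its group, by a gap that chance gives in about 1 in 20 groups. Sample 5 of non-affected humerus accounted for 3: EIF1 (Ssc.1881.1.S2_at) at 11.94, with the next at 11.68, IARS2 at 8.38, with the next at 8.06, and SARS (Ssc.9404.1.S1_at) at 8.28, with the next at 7.85. In affected humerus, sample 1 was low for DARS (Ssc.22328.2.S1_at), at 5.27 against 6.07, and for EEF1E1 (Ssc.4303.1.S1_at), at 8.08 against 8.62. Sample 2 was low for EIF1 (Ssc.1881.1.S2_at), at 11.19 against 11.52, sample 4 for AARS (Ssc.5773.1.A1_at), at 9.40 against 9.64, and sample 7 for EIF5A (Ssc.11669.1.S1_at), at 8.54 against 9.02. Sample 3 of non-affected humerus was low for EIF4G1 (Ssc.20606.1.S1_at), at 9.07 against 9.34. In femur, non-affected sample 5 was low for EIF3K, at 12.44 against 12.68, and affected sample 1 for WARS (Ssc.6139.1.S1_at), at 6.93 against 7.75.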

How the results depend on the processing

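None of the 64 named values reversed in the alternatives run on them. Between sites 34 of 90 members lay above 0 in the deposited values and 45 after quantile normalisation. EEF1G, outside the named values, was among those that changed sign, at 0.07. The calls between sites, 14 higher and 28 lower in the deposited values, were 22 higher and 16 lower after quantile normalisation. With all 23 arrays as separate samples, 2 probe sets were called by status in femur, EIF2B1 (adjusted p = 0.0334) and SARS (adjusted p = 0.0496), and 1 by the interaction, SARS at 0.92 (adjusted p = 0.0286); 2 arrays more entered those fits. With probe sets averaged per gene, 26 genes were called between sites and 13 within affected cartilage, against 33 and 21 genes with at least 1 probe set called, and the cause was not tested. Lost in that setting were 9 named calls, SARS, EIF4G1, EIF1, EIF4B and EIF4EBP2 between sites and EIF1, EIF2A, EIF3M and EIF4EBP2 within affected cartilage. Leaving out each sample in turn gave 39 to 47 calls between sites, 21 to 32 within affected and 18 to 32 within non-affected cartilage, the last at 18 without femur non-affected sample 3. It gave 0 calls by status and 0 to 1 by the interaction, where SARS was called at 0.97 (adjusted p = 0.0445) without femur affected sample 1. Of single genes, the call of EIF3M (Ssc.3401.1.S1_at) within affected cartilage was lost after quantile normalisation, at −0.74 (adjusted p = 0.0540), after median centring, and without affected femur sample 1 or 4 or affected humerus sample 2. EIF2A (Ssc.30146.1.A1_at) lost its call there without affected femur sample 4. Within non-affected cartilage EIF3M, DARS (Ssc.22328.2.S1_at) and EIF3L lost theirs without femur sample 3, and EIF3L also without femur sample 4 or humerus sample 6. EIF3D lost its call between sites without non-affected femur sample 4. No paired analysis was possible because the labels give no replicate numbers and do not say which animals were sibs. Signal near the floor limits the dim probe sets, such as EIF2A and EIF2AK2, and the number of samples limits the precision of every status difference.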

Other observations

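Probe sets annotated to a translation factor together with another gene were left out of the counts, since the signal cannot be given to 1 gene. Of these, both probe sets shared by EIF3G and SLC12A8 were called higher in femur, at 0.24 (adjusted p = 0.0261, limma) and 0.53 (adjusted p = 0.00146, limma). Those shared by EIF2S3 and LOC100624149 differed by −1.22 (adjusted p = 0.396) and −0.20 (adjusted p = 0.343), and those shared by EIF4EBP3 and ANKHD1 by −0.06 (adjusted p = 0.697) and 0.28 (adjusted p = 0.0698), and none of these was called.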
